A study of Mus musculus with 11 samples.

Results

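Ribosome biogenesis factors are the proteins that transcribe, modify, cut and fold ribosomal RNA and assemble it with ribosomal proteins. The module described here holds 38 such genes, out of 19933 genes that had an array probe set with 1 gene symbol. The 38 were chosen by name as members of this pathway, with earlier results of these data known. All 38 were on the array. All 38 also passed the filter on low values, and 37 of them lay at or above the array median on every one of the 11 arrays. The exception was Rrs1, which lay below the median in both dendritic cell arrays.

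RNA of sorted C57Bl/6 mouse cells was measured on 11 single-colour Affymetrix arrays. The mice were Zbtb46+/+ (WT, no gfp allele), Zbtb46 gfp/+ (Het, 1 gfp allele) or Zbtb46gfp/gfp (KO, 2 gfp alleles), analysed at steady state. Zbtb46 encodes a zinc finger transcription factor known from classical dendritic cells. From bone marrow, 3 stages on the way to red cells were sorted by surface proteins: Pre MegE (CD150+ CD105-), the common precursor of megakaryocytes and erythrocytes, then Pre CFU-E (CD150+ CD105lo), then CFU-E (CD150- CD105+), the erythroid colony-forming cell. All 3 gates were lineage-negative, CD117+, CD41- and CD16/32-. Splenic CD4+ dendritic cells (DC) were sorted from WT and KO mice as CD11c+ MHCII+ CD172+ CD11b+ CD4+ cells without B220 or CD8. Each genotype and cell type had 1 array, so a stage has n = 3 arrays, 1 per genotype, and DC have 2. Nothing in the labels says whether mice were pooled, or whether 1 mouse gave several stages. The p-values therefore measure agreement among these arrays.

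Ribosomes are made in the nucleolus. RNA polymerase I transcribes a long precursor RNA, which small nucleolar ribonucleoproteins (snoRNPs) modify at chosen bases and which the small subunit processome folds and cuts into the precursor of the small subunit, while another set of factors builds the large subunit. The program is known to be large in dividing cells, and many of its genes are known targets of the transcription factor MYC. Early red cell precursors are sensitive to defects in it, as the inherited anaemias of ribosome production show.

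The sorted cells carried the markers of their labels. Classical DC markers averaged 11.5 to 11.7 (log2 intensity, 11 genes) in the DC arrays and 6.98 to 7.50 in the progenitors, and 7 erythroid markers averaged 11.4 to 11.5 at Pre MegE, 12.3 a stage later and 12.6 in CFU-E. Other cells' markers also moved with these groups. Macrophage markers averaged 9.65 to 10.3 in DC (6 of 7 above the array median) against 6.59 to 6.90 in progenitors. Of the markers of T cells 1 of 3, of B cells 2 of 4 and of NK cells 0 of 5 lay above the median in both DC arrays. Megakaryocyte markers averaged 9.87 to 10.03 at Pre MegE and 8.37 to 8.47 at Pre CFU-E, and granulocyte and monocyte markers 11.1 to 11.3 and 10.2 to 10.5. Their part in the differences below was not tested. In bulk RNA, fewer cells that make a transcript and less of it per cell cannot be told apart. Zbtb46 itself, whose probe set need not lie in the disrupted part, measured 7.52 to 8.30 on the arrays of the earlier stages, 8.87, 8.62 and 7.50 in WT, Het and KO CFU-E, and 9.67 and 8.02 in WT and KO DC.

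Of the 38 genes, 37 rose between Pre MegE and Pre CFU-E. On average they then kept that level in CFU-E, and all 38 were lower in DC. At the first step (Pre CFU-E minus Pre MegE) 37 of 38 were higher at an adjusted p under 0.05 in limma, against 37.1% of the 10701 genes tested. The median difference was 0.50 on the log2 scale, against 0.04 over all genes tested. Differences ran from 0.09 for nucleolin to 1.11 for Mrto4. Genes with a higher level at Pre MegE had smaller differences (Spearman -0.725 over the 38). The part of the array's measuring range in this was not tested. In all 38 genes, nucleolin included, the lowest Pre CFU-E array lay above the highest Pre MegE array, as in 40.1% of all genes tested. With each array centred on its own median, 38 members and 47.1% of all genes were called higher.

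**Figure D1:**
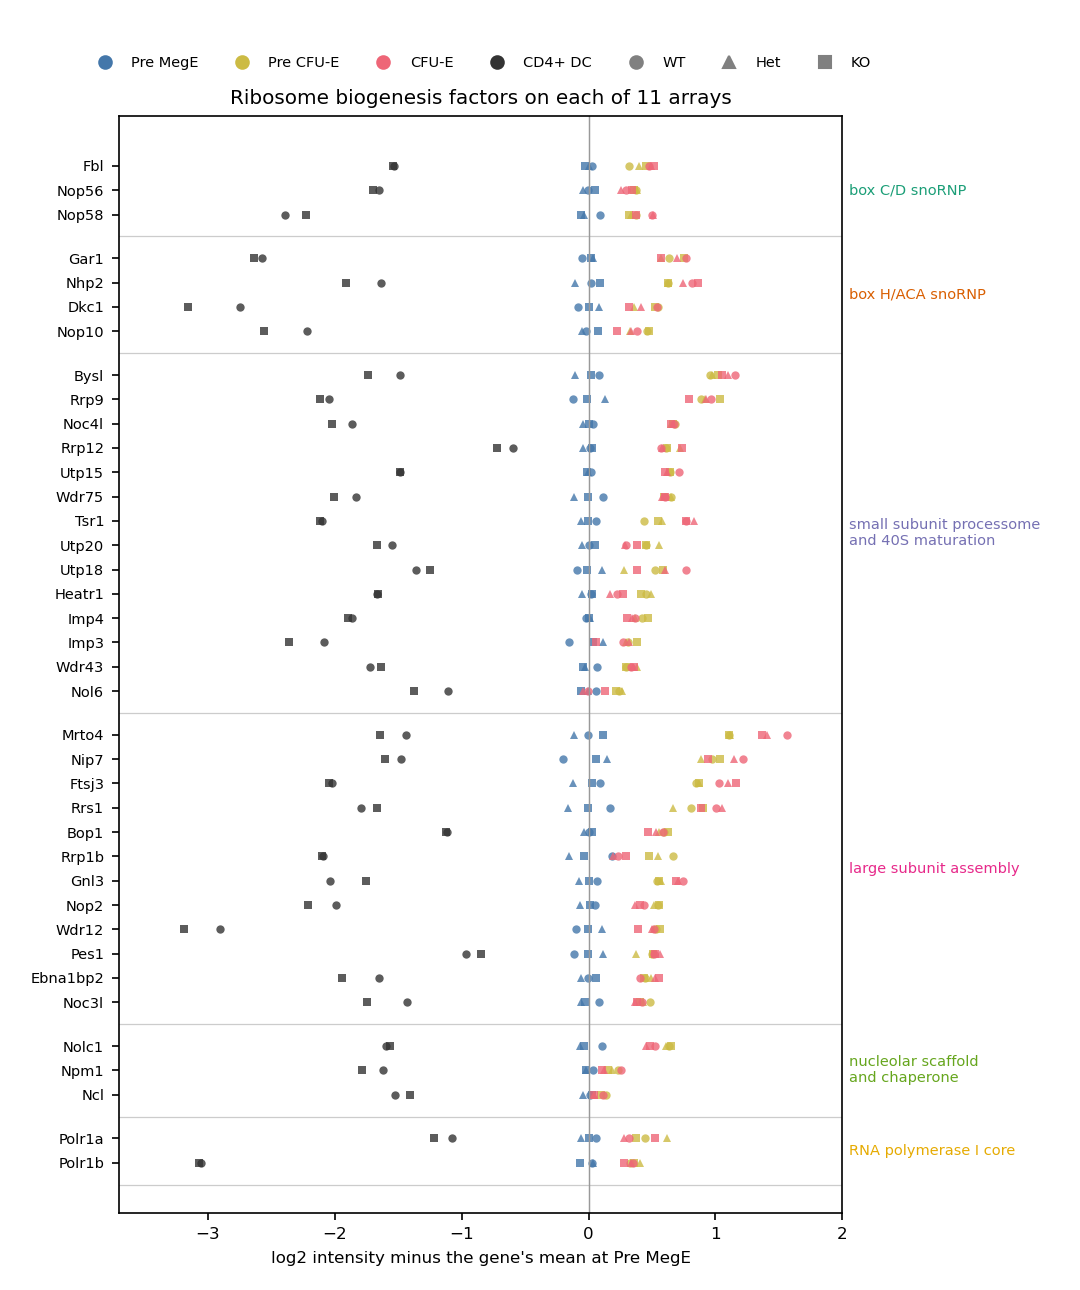
Log2 intensity of each of the 38 genes on each of the 11 arrays, minus that gene's mean over its 3 Pre MegE arrays (horizontal axis), with genes grouped by role. Colour gives the cell type and symbol shape the genotype. The Pre CFU-E arrays lie to the right of the Pre MegE arrays for all 38 genes (40.1% of all genes tested) and the CFU-E arrays for 36 (43% of all), and both DC arrays lie to the left of every progenitor array for all 38 genes (57.8% of all).

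Promoter sequences of the members were set beside those of all genes. RefSeq windows from 250 bases before to 50 bases after the transcription start (mouse build GRCm38.p6) matched 32 of the 38 genes, by symbol. The E-box CACGTG, the site that MYC and MAX are known to bind, was found in 7 of 32 members (21.9%: Imp4, Nop2, Pes1, Tsr1, Utp18, Utp20 and Wdr43), against 7.15% of 32851 windows of the same length. The ETS core CGGAAG was found in 17 members (53.1% against 16.9% of all windows). The GC box GGGCGG was in 23 (71.9% against 35.7%) and CCAAT in 14 (43.8% against 37.4%). CTCGCGAG was in 1 member, Tsr1 (3.12% against 0.919%), and the GATA sequence GATAAG in 0 of 32 (7.44% of all windows). Every motif was searched on both strands, and a GC box that shares bases with an ETS core counts for both. A match is a description of the letters, not of binding. Members were counted per gene, over 35 windows, but the background per window. The background holds all windows and was not matched for base content or expression level. Members with the E-box had a median first step of 0.46 (n = 7) and those without it 0.55 (n = 25). Windows of 4 members are shown, since their genes recur below. The E-box is in 2 of them (Nop2, which fell at the second step, and Tsr1, which rose). The window of Nip7 holds ETS cores but no E-box, and that of Mrto4, the gene with the largest rise, holds neither. Capitals mark CACGTG and CGGAAG, or its reverse complement CTTCCG. The windows lie at chr6:125131633-125131932 (plus strand) for Nop2, chr11:74897830-74898129 (plus) for Tsr1, chr8:107056627-107056926 (plus) for Nip7 and chr4:139352527-139352826 (minus) for Mrto4.
Nop2: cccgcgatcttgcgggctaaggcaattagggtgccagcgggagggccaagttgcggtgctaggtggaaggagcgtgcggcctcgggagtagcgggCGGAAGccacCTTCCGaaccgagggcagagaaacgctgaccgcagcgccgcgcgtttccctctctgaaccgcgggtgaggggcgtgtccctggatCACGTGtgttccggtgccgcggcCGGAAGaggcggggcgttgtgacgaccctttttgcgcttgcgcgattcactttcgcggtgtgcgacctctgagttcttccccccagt
Tsr1: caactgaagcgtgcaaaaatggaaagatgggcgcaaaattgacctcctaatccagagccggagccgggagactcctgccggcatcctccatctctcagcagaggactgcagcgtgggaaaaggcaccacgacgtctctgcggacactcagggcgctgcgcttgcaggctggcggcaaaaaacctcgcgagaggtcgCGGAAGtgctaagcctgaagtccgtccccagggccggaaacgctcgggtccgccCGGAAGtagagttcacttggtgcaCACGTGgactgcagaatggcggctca
Nip7: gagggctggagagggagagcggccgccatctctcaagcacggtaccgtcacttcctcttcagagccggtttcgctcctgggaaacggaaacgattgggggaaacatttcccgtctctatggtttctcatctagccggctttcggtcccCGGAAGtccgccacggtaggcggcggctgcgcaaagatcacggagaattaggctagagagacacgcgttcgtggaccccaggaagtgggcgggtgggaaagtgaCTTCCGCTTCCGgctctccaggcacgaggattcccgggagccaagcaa
Mrto4: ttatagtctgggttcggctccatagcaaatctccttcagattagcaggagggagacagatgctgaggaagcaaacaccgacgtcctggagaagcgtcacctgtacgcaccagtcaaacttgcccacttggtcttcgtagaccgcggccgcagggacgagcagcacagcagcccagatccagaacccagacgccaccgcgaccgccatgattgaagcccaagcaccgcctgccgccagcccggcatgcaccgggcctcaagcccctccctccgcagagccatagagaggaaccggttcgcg
The E-box of Nop2 begins 60 bases before the start site and that of Tsr1 24 bases after it. Nop2 holds 3 ETS cores, Tsr1 2 and Nip7 3.

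RNA polymerase I, the enzyme at the head of the pathway, was represented by the genes of its catalytic core, Polr1a and Polr1b. Values are given as log2 intensity in the order WT, Het, KO for each stage and WT, KO for DC. Polr1a measured 10.83, 10.71 and 10.77 at Pre MegE, 11.22, 11.39 and 11.15 at Pre CFU-E, 11.09, 11.05 and 11.30 in CFU-E, and 9.70 and 9.55 in DC. Polr1b measured 12.16, 12.17 and 12.07 at Pre MegE, 12.47, 12.54 and 12.50 at Pre CFU-E, 12.49, 12.47 and 12.42 in CFU-E, and 9.08 and 9.07 in DC. Both genes were higher at Pre CFU-E than at Pre MegE on every array. Polr1a rose by 0.48 (SE 0.085, adjusted p = 0.000767) and Polr1b by 0.37 (SE 0.047, adjusted p = 9.69e-05), and neither was called at the second step. The genes parted in DC. Against the progenitor mean Polr1b was at -3.28, next to the largest difference of the 38, whereas Polr1a was at -1.43.

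Box C/D snoRNPs guide the methylation of ribosomal RNA. Fbl encodes fibrillarin, their methyltransferase, and Nop56 and Nop58 encode their core scaffold. All 3 genes rose at the first step, by 0.34 to 0.39. Fbl measured 12.34, 12.32 and 12.29 at Pre MegE, 12.63, 12.71 and 12.77 at Pre CFU-E, 12.80, 12.81 and 12.84 in CFU-E, and 10.78 and 10.78 in DC. Nop58 measured 11.70, 11.57 and 11.55 at Pre MegE, 11.98, 11.94 and 11.93 at Pre CFU-E, 12.11, 12.12 and 11.98 in CFU-E, and 9.21 and 9.38 in DC. In both genes each CFU-E array lay above every Pre CFU-E array, but the second step was not called for either (Fbl 0.11, adjusted p = 0.115; Nop58 0.12, adjusted p = 0.0782). The third gene, Nop56, lay lower on every CFU-E array than on any Pre CFU-E array, by 0.07 on average (adjusted p = 0.238). In DC the group's median difference was -1.91.

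Box H/ACA snoRNPs guide the conversion of uridine to pseudouridine and share their proteins with telomerase. Dkc1 encodes dyskerin, the pseudouridine synthase, and Gar1, Nhp2 and Nop10 encode its partners. All 4 rose at the first step, with a median of 0.55, and the group had the lowest median in DC, -2.85. Gar1 measured 11.25, 11.35 and 11.33 at Pre MegE, 11.94, 11.88 and 12.06 at Pre CFU-E, 12.08, 12.01 and 11.88 in CFU-E, and 8.74 and 8.67 in DC. Nop10 measured 12.62, 12.59 and 12.72 at Pre MegE, 13.11, 12.97 and 13.12 at Pre CFU-E, 13.03, 12.98 and 12.87 in CFU-E, and 10.42 and 10.09 in DC. Gar1 rose by 0.65 (SE 0.070, adjusted p = 3.07e-05) and Nop10 by 0.42 (SE 0.062, adjusted p = 0.000232). Dkc1 measured 11.23, 11.39 and 11.32 at Pre MegE, 11.86, 11.67 and 11.83 at Pre CFU-E, 11.85, 11.73 and 11.63 in CFU-E, and 8.56 and 8.15 in DC. Dkc1 rose by 0.48 (SE 0.076, adjusted p = 0.000411), with steps of 0.63 in WT, 0.28 in Het and 0.52 in KO. Nhp2 was the only one of the 4 called again at the second step, by 0.18 (adjusted p = 0.0183).

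The small subunit processome and the factors that finish the small subunit gave 14 members, all of which rose at the first step (median 0.50). They include the U3 snoRNP protein Rrp9 (0.95), Wdr43, Wdr75, Heatr1 and Utp15 of the subcomplex that joins transcription to processing, Nol6, Utp18 and Utp20, the U3-associated proteins Imp3 and Imp4, Noc4l, and the later-acting Bysl, Tsr1 and Rrp12. Bysl measured 9.98, 9.79 and 9.91 at Pre MegE, 10.86, 10.87 and 10.91 at Pre CFU-E, 11.05, 10.99 and 10.94 in CFU-E, and 8.41 and 8.16 in DC. Bysl, which encodes bystin, rose by 0.98 (SE 0.055, adjusted p = 5.85e-07, 1.98-fold). Nol6 measured 11.28, 11.22 and 11.16 at Pre MegE, 11.46, 11.49 and 11.44 at Pre CFU-E, 11.22, 11.17 and 11.35 in CFU-E, and 10.11 and 9.84 in DC. Nol6 had the smallest first step of the group, 0.24 (SE 0.060, adjusted p = 0.00563), and fell back by 0.21 at the second (adjusted p = 0.0174). Its CFU-E arrays overlapped its Pre MegE arrays again, and the whole change from Pre MegE to CFU-E was 0.03 (adjusted p = 0.685). With quantile normalization the first step of Nol6 was 0.15 and was not called. Rrp12 measured 9.50, 9.44 and 9.51 at Pre MegE, 10.10, 10.21 and 10.10 at Pre CFU-E, 10.05, 10.06 and 10.22 in CFU-E, and 8.88 and 8.76 in DC. Rrp12, an export factor of the small subunit, rose by 0.65 (SE 0.060, adjusted p = 1.15e-05), and its second step was -0.02 (adjusted p = 0.8).

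Factors of the large subunit gave 12 members, and all 12 rose at the first step, with a median of 0.56. The 3 genes of the PeBoW complex, Pes1, Bop1 and Wdr12, which is known to act on the 28S rRNA precursor, rose by 0.46, 0.59 and 0.54. Mrto4 measured 9.36, 9.25 and 9.47 at Pre MegE, 10.46, 10.47 and 10.46 at Pre CFU-E, 10.92, 10.76 and 10.73 in CFU-E, and 7.92 and 7.72 in DC. Mrto4 encodes a relative of the ribosomal stalk protein P0 that holds its place on the maturing subunit. It rose by 1.11 (SE 0.067, adjusted p = 8.84e-07, 2.15-fold), and its stages did not overlap. Noc3l measured 10.36, 10.22 and 10.25 at Pre MegE, 10.76, 10.71 and 10.68 at Pre CFU-E, 10.70, 10.65 and 10.66 in CFU-E, and 8.85 and 8.53 in DC. Noc3l had the smallest step of the group, 0.44 (SE 0.046, adjusted p = 2.56e-05). Wdr12 measured 11.23, 11.44 and 11.33 at Pre MegE, 11.86, 11.85 and 11.90 at Pre CFU-E, 11.85, 11.83 and 11.72 in CFU-E, and 8.43 and 8.14 in DC. Pes1 measured 10.75, 10.97 and 10.86 at Pre MegE, 11.36, 11.24 and 11.37 at Pre CFU-E, 11.38, 11.42 and 11.38 in CFU-E, and 9.89 and 10.01 in DC. Their second steps were 0.07 for Pes1 and -0.07 for Wdr12, and neither was called. The other large rises were those of Nip7 (0.97), the methyltransferase gene Ftsj3 (0.86) and Rrs1 (0.79), a factor of the 5S particle.

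Among the 3 nucleolar scaffold and chaperone genes were those with the smallest first steps of the module, Ncl and Npm1. Ncl measured 12.92, 12.87 and 12.93 at Pre MegE, 13.04, 12.95 and 13.00 at Pre CFU-E, 13.02, 12.95 and 12.95 in CFU-E, and 11.38 and 11.50 in DC. Ncl encodes nucleolin, an abundant RNA-binding protein of the nucleolus, and its first step was 0.09 (SE 0.045, adjusted p = 0.0979). It was called higher with arrays centred on their medians (0.18), with array weights (0.11) and with a trend in the prior variance (0.09). Npm1, which encodes the chaperone nucleophosmin, rose by 0.19 (SE 0.046, adjusted p = 0.00437). Nolc1 measured 11.42, 11.25 and 11.28 at Pre MegE, 11.95, 11.93 and 11.96 at Pre CFU-E, 11.84, 11.77 and 11.80 in CFU-E, and 9.72 and 9.75 in DC. Nolc1, whose protein binds snoRNPs in the nucleolus and the Cajal body, rose by 0.63 (SE 0.049, adjusted p = 4.27e-06) and fell by 0.14 at the second step (adjusted p = 0.0429).

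At the second step (CFU-E minus Pre CFU-E) most members were not called, nor were 5989 of the 10701 genes tested. The step shares its Pre CFU-E arrays with the first. Of the 38 genes, 5 rose (18.7% of all genes tested), 6 fell (25.3% of all) and 27 were not called. The median was -0.03, against -0.005 over all genes. The genes that rose were Mrto4 (0.34), Tsr1 (0.27), Ftsj3 (0.23), Nhp2 (0.18) and the nucleostemin gene Gnl3 (0.16). Those that fell were Rrp1b (-0.32), Heatr1 (-0.23), Nol6 (-0.21), Utp20 (-0.17), Nolc1 (-0.14) and the rRNA methyltransferase gene Nop2 (-0.13). All 11 had the same sign in WT, Het and KO, but the calls come from those same arrays, so this is no separate support. Every CFU-E array lay above every Pre CFU-E array in 9 members (24.9% of all genes tested) and below in 9 (30.1% of all). Rrp1b measured 10.65, 10.32 and 10.43 at Pre MegE, 11.13, 11.01 and 10.94 at Pre CFU-E, 10.70, 10.66 and 10.76 in CFU-E, and 8.37 and 8.36 in DC. Rrp1b, after a first step of 0.56, lay lower on every CFU-E array than on any Pre CFU-E array. In WT its CFU-E level was 0.05 above that at Pre MegE, and in Het and KO 0.35 and 0.33 above.

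The calls of the second step depended on single arrays. Heatr1, Tsr1, Rrp1b and Mrto4 kept theirs under every alternative run. Leaving out the WT Pre CFU-E array left 2 genes higher (12.4% of all genes tested) and 2 lower (19.8%). Leaving out the Het CFU-E array left 2 higher (13.2%) and 2 lower (20.3%). Without the WT CFU-E array 3 were higher (13.8%) and 2 lower (20.8%). Without the Het Pre CFU-E array 2 were lower (22.1%), and without the KO Pre MegE array 3 were lower (23.5%). With array weights 11 were higher (31.9% of all genes).

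The difference between the steps was tested directly. The second was called smaller than the first in 34 of 38 genes (24.1% of all genes tested) and larger in 0 (14.6% of all). All 38 values were negative, as were 6168 of the 10701 over all genes tested. The median of this difference was -0.56, against -0.06 over all genes, and it ran from -0.998 for Rrp9 to -0.12 for Ncl. The 4 genes not called were Ncl, Nop58, Tsr1 and Utp18. Tsr1 rose at both steps, by 0.52 and 0.27, with the difference at -0.25 (adjusted p = 0.0733). From the first stage to the last, 36 genes were higher, against 41.5% of all genes tested, with a median of 0.49. The first step exceeded the whole span in 22 genes, which are those with a negative second step (5451 of all 10701 genes tested had one). It made up under 75% of the span in 2 (Nop58 and Tsr1). The largest gain over the span was that of Mrto4, 1.45 (2.72-fold).

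**Figure D2:**
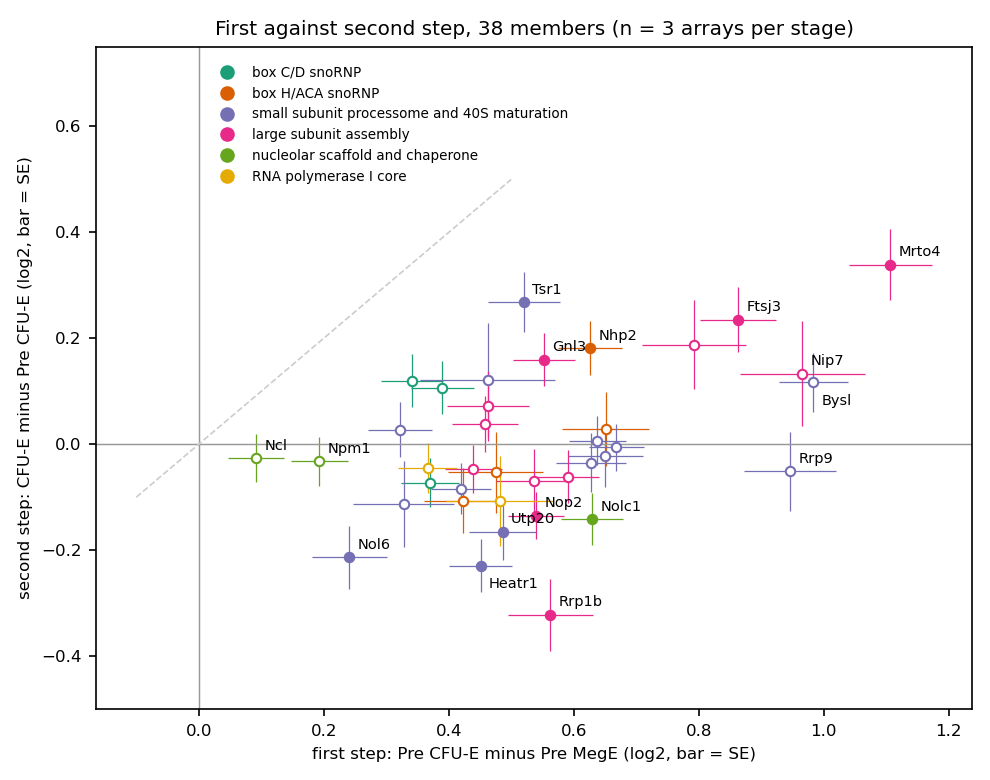
First step (horizontal axis, Pre CFU-E minus Pre MegE) against second step (vertical axis, CFU-E minus Pre CFU-E) of the 38 genes, in log2, with standard errors as bars and roles as colours. Filled points passed the test at the second step, the dashed line marks equal steps, and all 38 genes lie below it, from Ncl near the origin to Mrto4 at 1.11 and 0.34.

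Most of the pathway's remaining genes, from lists that leave out the 38, rose at the first step too. These lists were also chosen with earlier results of these data known. All 45 other small subunit factors tested rose (median 0.51), from 0.17 for the late-acting kinase gene Riok1 to 1.10 for Pno1, a factor of the late small subunit precursor. Of 48 other large subunit factors, 43 rose and 2 fell (median 0.44), from Nop53 (-0.22) to Wdr74 (0.97). Of 11 further snoRNP and Cajal body genes, 10 rose (median 0.44), the assembly chaperone gene Rpap3 by 0.82, with the cap methyltransferase gene Tgs1 at 0.10 (adjusted p = 0.103). Of 21 genes of the RNA exosome and processing nucleases, 19 rose (median 0.58), most of all Rpp40 of RNase P and MRP (1.30), while the exonuclease gene Xrn2 was at -0.01 (adjusted p = 0.808). Of 19 genes of RNA polymerase I and its initiation factors, 13 rose (median 0.32), the polymerase subunit gene Cd3eap by 0.73, with Taf1d of the initiation factor SL1 at -0.10 (adjusted p = 0.116). With quantile normalization these counts were 43, 40, 9, 19 and 13, in the same order. Over all genes tested, 37.1% rose, and 37.3% with quantile normalization.

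Genes for the proteins of the finished ribosome were mostly not called. Of 56 cytosolic ribosomal protein genes tested, 6 rose at the first step (Rps27l by 0.64, Rpl12, Rpl14, Rpl34, Rpl30 and Rplp1), against 37.1% of all genes tested. The median of the 56 was 0.02, and the lowest was Rpl38 at -0.09 (adjusted p = 0.123). At the second step 0 of 56 were called by limma (18.7% of all genes rose and 25.3% fell), with 2 at an unadjusted p under 0.05. As for the members, the part of the array's measuring range in these differences was not tested. Centring arrays on their medians raised the first count to 17 with a median of 0.11, and quantile normalization gave 5 higher and 3 lower with a median of -0.01. Cell division genes rose at the first step as well: 17 of 18 genes of the G2 and M phases did (median 0.70). The mitotic kinase gene Aurka was at 0.97 and Mki67 at 0.09 (adjusted p = 0.19). At the second step 11 of the 18 rose and 0 fell (median 0.21), whereas 5 of the 38 members rose and 6 fell (median -0.03). The part of the cell division genes in the module's change was not tested.

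Levels of the MYC family genes were read at the same steps. Myc measured 13.02, 13.10 and 13.09 at Pre MegE, 13.20, 13.21 and 13.22 at Pre CFU-E, 12.75, 12.79 and 12.76 in CFU-E, and 10.68 and 10.57 in DC. In limma it rose by 0.14 at the first step (adjusted p = 0.0199) and fell by 0.44 at the second. The first-step difference of Myc was 0.07 and not called with quantile normalization. It was also not called, at 0.12 to 0.15, on leaving out the WT, Het or KO Pre MegE array or the WT or KO Pre CFU-E array. Mycn measured 10.28, 10.49 and 10.47 at Pre MegE, 7.88, 7.85 and 7.88 at Pre CFU-E, 7.28, 7.36 and 7.49 in CFU-E, and 7.28 and 7.31 in DC. It fell by 2.54 at the first step. The part of either gene in the module's change was not tested. Of 11 MYC network genes tested, 2 rose and 6 fell at the first step (median -0.23). Over all 10701 genes tested, 3965 rose and 3134 fell. The list mixes MYC genes with other members of the network, so its count gives no direction for MYC. Besides Myc, the gene that rose was Mlx (0.51), which encodes a MAX-like partner.

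In DC every member was lower than in the progenitors. Against the mean of the 3 stages, 38 of 38 were called lower, against 64.6% of the 11560 genes tested. The median was -2.24, against -0.59 over all genes. Both DC arrays lay below every progenitor array in all 38 genes, as in 57.8% of all genes tested. Against Pre MegE alone 38 were lower as well (65.7% of all genes tested), with a median of -1.74. Xist, the RNA of the inactive X chromosome, also differed between the groups. It measured 13.2 and 13.3 in DC, 11.5 to 12.3 in WT progenitors and 5.86 to 6.38 in Het and KO progenitors. What goes with Xist in the DC difference was not tested. The overall distribution of intensity differed between these arrays too: the upper quartile of intensity was 641 and 605 in DC and 968 to 1009 in progenitors. With quantile normalization 38 members were still lower, with a median of -1.66, but the median over all genes moved to -0.10 and 47.7% of all genes were lower.

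**Figure D3:**
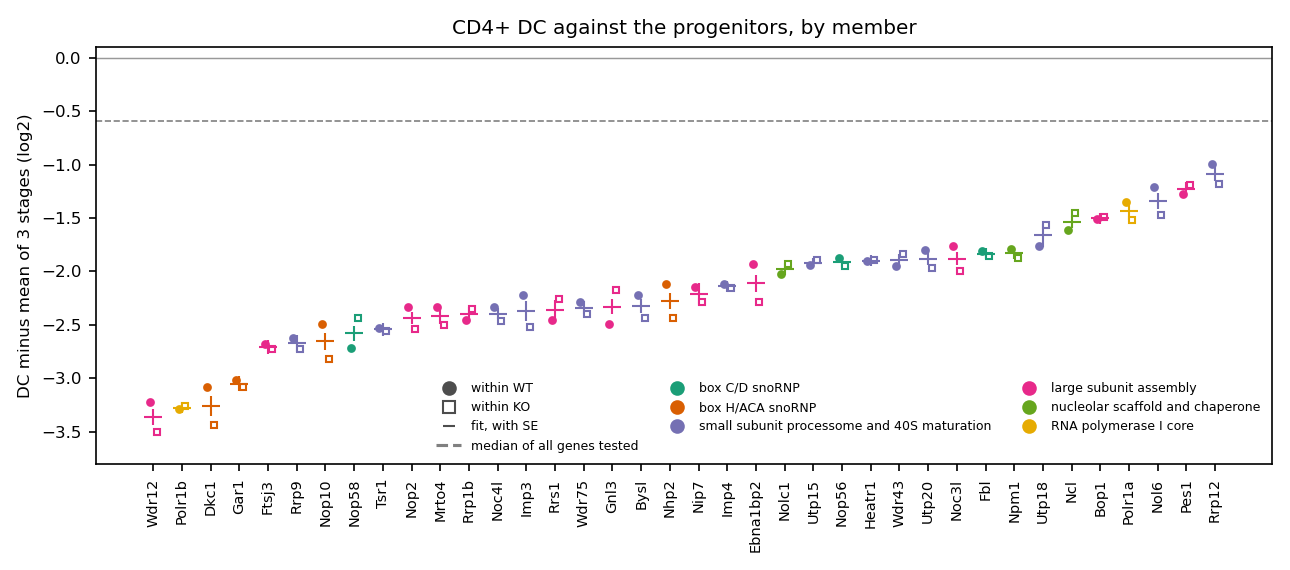
Difference in log2 intensity between DC and the mean of the 3 progenitor stages for each of the 38 genes, sorted, with colours for roles. Circles show the difference within WT, squares within KO, and the crosses the fitted value with its standard error. All values lie below the dashed line, the median of all genes tested at -0.59, from Wdr12 at -3.36 to Rrp12 at -1.09.

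The size of the DC difference varied widely within the module and within complexes. Wdr12 was lowest at -3.36 (SE 0.077, 10.3-fold, adjusted p = 1.94e-11), followed by Polr1b (-3.28), Dkc1 (-3.26) and Gar1 (-3.05). The smallest differences were those of Rrp12 (-1.09, SE 0.068, 2.13-fold, adjusted p = 4.03e-08), Pes1 (-1.23) and Nol6 (-1.34). Wdr12 and Pes1 act in the same PeBoW complex, and the third gene of it, Bop1, was at -1.50. By role, the medians were -2.85 for box H/ACA, -2.35 for the polymerase genes, -2.34 for the large subunit, -2.03 for the small subunit, -1.91 for box C/D and -1.83 for the scaffold genes. Rrs1 measured 6.61 and 6.74 in DC, below the array median on both arrays, and its difference was -2.36. The 3 members with a further probe set of their own, Fbl, Mrto4 and Wdr12, gave -2.08, -2.42 and -3.58 with it in place of -1.83, -2.42 and -3.36. The further probe set of Wdr12 measured 6.99 and 6.86 in WT and KO DC, below the array medians of 7.61 and 7.64.

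The pathway's other genes were lower in DC too. All 45 other small subunit factors (median -1.75), 48 large subunit factors (-1.65), 11 snoRNP genes (-1.74), 19 polymerase I genes (-1.56) and 21 exosome and nuclease genes (-2.02) were called lower. With quantile normalization these were 44, 43, 11, 16 and 20. Over all genes tested, 64.6% were lower, and 47.7% with quantile normalization. Ribosomal protein genes, 56 tested of 81 listed, were lower in 55 cases, by a median of -0.69 (all genes -0.59). With quantile normalization 30 of the 56 were lower and 5 higher, with a median of -0.17 (all genes -0.10). All 18 G2 and M phase genes were lower, by a median of -2.98.

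**Figure D4:**
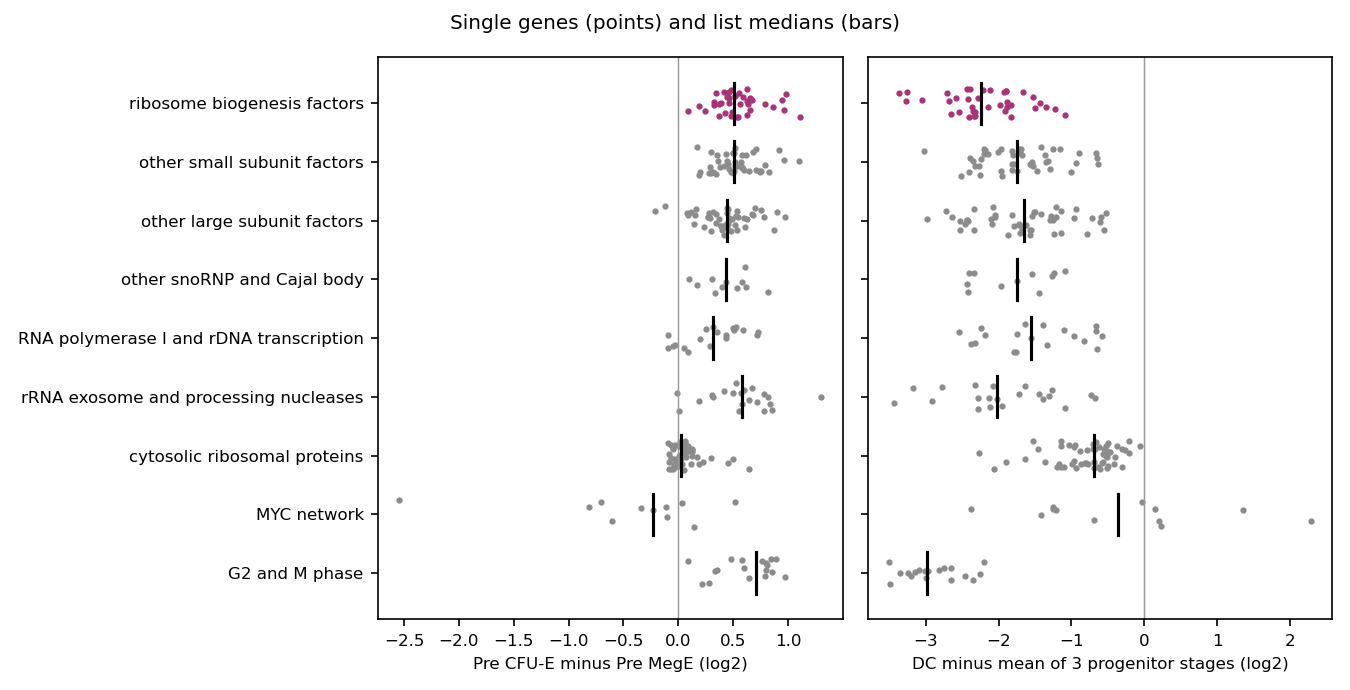
Log2 differences of single genes (points) and list medians (bars) for the 38 members and 8 further lists, at the first step on the left and for DC minus the mean of the progenitor stages on the right. The first-step medians of the biogenesis lists lie between 0.32 and 0.58, that of the ribosomal proteins at 0.02, and the DC median of the 38 members at -2.24.

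Between genotypes, 0 members were called in the progenitors. KO minus WT gave 0 of 38 called by limma, with 0 at an unadjusted p under 0.05, against 0.14% of all genes called (15 of 10701). The median was -0.02, and the differences ran from -0.12 for Rrp1b (SE 0.068, adjusted p = 0.971) to 0.07 for Ebna1bp2. Het minus WT gave 0 of 38 called and 1 at an unadjusted p under 0.05, which was Rrp1b (-0.16), against 0.0374% of all genes (4 of 10701). The genotypes also differ in Xist, the RNA of the inactive X chromosome. It measured 12.31, 11.84 and 11.52 in the WT progenitors and 5.86 to 6.38 in the Het and KO progenitors, so genotype and Xist level cannot be told apart there. Both DC arrays had high Xist (13.2 and 13.3).

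Whether the steps themselves differed in KO was fitted after the values by genotype had been seen. The first step in KO against the mean of WT and Het gave 0 of 38 called and 0 at an unadjusted p under 0.05, and the second gave 0 called and 4 at an unadjusted p under 0.05. In both, 0% of all genes were called by limma, with 233 of 10701 at an unadjusted p under 0.05 for the first and 1444 for the second. At the second step 25 of 38 members (65.8%) were lower in KO, against 51.4% of all genes tested, with a median of -0.05 (all genes -0.006). Gar1, Rrp9, Utp18, Nip7 and Rrs1 had positive second steps in WT and Het and negative ones in KO, and Wdr75, Rrp12 and Polr1a the opposite signs. Such sign changes were not counted over all genes. Utp18 changed by 0.25 in WT, 0.32 in Het and -0.20 in KO (difference -0.48, SE 0.178, adjusted p = 0.345).

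In DC, KO was compared with WT on 1 array each, with no replicate check. Of the 37 members at or above the array median on at least 1 of the pair, 29 were lower in KO and 8 higher, with a median of -0.07. Over all 10554 such genes 61.2% were lower and the median was -0.05. Past 2-fold were 0 of 37 members, against 0.313% of all genes. Dkc1 had the largest difference, 8.56 in WT and 8.15 in KO (-0.41), and all 4 box H/ACA genes were lower in KO (median -0.31). Gnl3 was the highest, at 9.37 and 9.65 (0.29). With quantile normalization 20 of 38 were lower.

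The KO effect in DC was set against that in progenitors, where KO and WT also differ in Xist. The fit used lends the lone DC arrays the progenitors' spread. It gave 0 of 38 called and 8 at an unadjusted p under 0.05, against 4.57% of all genes called. These 8 were Ebna1bp2, Gnl3, Nhp2, Nop58, Nop10, Noc3l, Wdr12 and Dkc1, with Ebna1bp2 at -0.36 (SE 0.106, adjusted p = 0.1) and Gnl3 at 0.32 (SE 0.099, adjusted p = 0.116). Leaving out the KO CFU-E array, 1 member was called, Nop10 (-0.40, adjusted p = 0.0428), against 7.14% of all genes. With quantile normalization 3 were called (9.82% of all genes), and with array weights 12 (31.6% of all). In the same fit 16 of 18 G2 and M phase genes were lower (median -0.74), and their part in the members' values was not tested.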

How the data were processed

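The deposited values are RMA intensities of Affymetrix arrays with a linear scale, 1 value for each probe set on each array, with RMA named in the submitters' processing notes and the kit (Ambion/Affymetrix WT Expression) per the labels' protocols. For the RMA version, any later scaling and a genome build, the sources used here give nothing. The log2 was taken here, with no further scaling. Of 29674 probe sets, 21780 had 1 symbol in the platform annotation. Each of 19933 genes was read from its probe set with the highest mean over the 11 arrays. A gene was tested if at or above the array median on at least 2 arrays of the fit.

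Tests used limma 3.58.1 in R 4.3.3 (two-sided, Benjamini-Hochberg over all genes tested, with an adjusted p under 0.05 as the threshold of a call). Stages and genotypes were fitted additively on the 9 progenitor arrays (10701 genes, 4 residual degrees of freedom) and cell types and genotypes on all 11 (11560 genes, 5 degrees of freedom, with no Het DC array). The additive fits compare stages within genotypes. The number of arrays limits the precision: the median residual SD was 0.0705 for all genes and 0.0621 for the members. The fits were tested on simulated data with known differences. No pair of arrays shared over 7.78% of its values.

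The members, roles, lists and named genes were chosen with earlier results of these data known. Named by rule were, in each role, the largest and smallest first step, then the 3 largest and 3 smallest DC differences, the largest KO differences, and the extremes of each further list. The listed promoters were counted for motifs by exact match. Alternatives were median centring, quantile normalization, 2 other filters, the mean of a gene's probe sets, array weights, a variance trend, fewer arrays in the fit and leaving out each array.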

Additional observations from a re-analysis of the deposited data

How the results depend on the processing

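Counts of members called kept within 1.5 times under the alternatives run for the first step, its difference from the second, the whole span, DC against progenitors, and KO or Het against WT. The second step did not. Its count of genes higher, 5, became 11 with array weights, and its count lower, 6, became 3 with median centring, with no filter and with only the 2 stages compared. Leaving out 1 array gave 2 to 6 higher and 2 to 6 lower. The median of that step, -0.03, was 0.0075 with median centring and -0.0322 to -0.0024 with 1 array left out. The median first step, 0.50, was 0.59 with median centring and 0.44 with quantile normalization. The median DC difference, -2.24, was -1.66 with quantile normalization and -2.28 to -2.13 with 1 array left out. The KO effect in DC against progenitors gave 3 members with quantile normalization (Ebna1bp2, Gnl3 and Nop58), 12 with array weights and 0 to 1 with 1 array left out. The estimation of array weights stopped before it converged. The causes were not tested. Single values were checked for named genes at the first step and in DC, and at the second step only for genes called there. Of these values, 848 kept their call and direction, 51 lost it, 3 gained it and 0 reversed. Most of the 51 lay at the second step, and the rest were Nol6 and Myc at the first. Genotype was a term in every fit, so stages were already compared within genotypes, and the labels give no replicate numbers for a further block.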

Other observations

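Some snoRNAs, the guides that snoRNPs carry, are made from introns of the module's own genes. Of the genes annotated as snoRNAs by RefSeq (GRCm38.p6) inside a member, 4 in 3 hosts had a probe set with 1 symbol. Inside Ncl, Snord82 measured 12.52, 12.41 and 12.53 at Pre MegE and 12.12, 12.12 and 12.18 at Pre CFU-E, in the order WT, Het and KO. It fell by 0.35 at the first step in limma (adjusted p = 0.000207), and in DC it was 0.30 higher than in progenitors (adjusted p = 0.00029), where Ncl was at -1.53. Snora75, also inside Ncl, fell by 0.25 at the first step (adjusted p = 0.00209) and was at -1.67 in DC. Snord53, inside Wdr43, rose by 0.34 (adjusted p = 0.00377), next to 0.32 for Wdr43, and was at -1.43 in DC. Snord57, inside Nop56, was at 0.03 (adjusted p = 0.694) and, in DC, at -0.13 (adjusted p = 0.064), whereas Nop56 rose by 0.37 and was at -1.91 in DC. The differences between a snoRNA and its host were not tested, nor was how far the labelling kit captures such short RNAs.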
